A study of Mus musculus with 5 samples.

Results

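Insulin binds its receptor at the cell surface, and the activated receptor phosphorylates substrate and adaptor proteins that recruit PI3-kinase. PI3-kinase activates the kinase AKT, which in fat cells sends the glucose transporter GLUT4 to the membrane and, through the TSC1 and TSC2 proteins, releases the growth kinase mTOR. Insulin is also an inducer of fat cell differentiation in culture, and adipose tissue is a main site of insulin-stimulated glucose uptake. MacroH2A1.2 is a splice form of the histone variant macroH2A1, which takes the place of H2A in some nucleosomes and forms broad domains in chromatin. The data described here are the macroH2A1.2 regions found by chromatin immunoprecipitation and sequencing (ChIP-Seq) at 34 genes of this pathway, out of 21755 protein-coding genes. The 34 genes were given as a list: a ligand and receptors, substrates and adaptors, PI3-kinase subunits, AKT and its substrates, glucose uptake genes, mTOR complexes and 2 brakes on the pathway. For each gene, every region overlapping its body or the 10 kb on either side was taken, and this stretch is called the window below.

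The cells were 3T3-L1, a mouse fibroblast line that turns into adipocytes when treated with an inducing cocktail of IBMX, dexamethasone and insulin. All samples stably expressed a macroH2A1.2-GFP fusion from a lentiviral vector, and the fusion protein was precipitated with an anti-GFP antibody, so the regions are those of an overexpressed tagged protein. Pre-adipocytes (2 replicates) were taken before differentiation and mature adipocytes (2 replicates) after it, and 1 library made without antibody was the control for all. Conditions were taken from the sample titles, since the descriptions of the mature adipocyte samples and of the control name the state before differentiation. The study describes the 2 replicates of a condition as biological ones. ChIP reads do not measure RNA, so neither the expression of these genes nor the adipocyte state of the cells could be checked.

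The deposited regions numbered between 36468 and 61196 per sample, and each was called by the authors where ChIP reads exceeded control reads at a false discovery rate (FDR) of up to 0.001. Relative to the control library, the ChIP libraries had sizes of 1.2 and 0.549 in pre-adipocyte replicates 1 and 2, and 1.23 and 1.21 in mature adipocyte replicates 1 and 2. Replicate 2 of pre-adipocytes was thus the shallowest, with a median of 57 ChIP reads per region against 121 to 186 in the others. Where a gene has no region, no stretch of it passed the FDR, which does not show that macroH2A1.2 was absent there.

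The sequences that frame the findings are 4 promoters, each from 250 bases before to 50 bases after a transcription start in RefSeq (GRCm38.p6), chosen after the regions had been seen. Those of Igf1, Tbc1d4 and Cblb are the only ones of the 43 promoters of 32 listed genes that touched a region in any sample. The promoter of Rictor, with the region of 3 samples stopping short of it, is shown for contrast. CpG dinucleotides are in capitals, to show how their number differs between these promoters. The Igf1 promoter lies at chr10:87860861-87861160 on the plus strand, that of Tbc1d4 at chr14:101609142-101609441 on the minus strand, that of Cblb at chr16:52031299-52031598 on the plus strand and that of Rictor at chr15:6708131-6708430 on the plus strand.
Igf1: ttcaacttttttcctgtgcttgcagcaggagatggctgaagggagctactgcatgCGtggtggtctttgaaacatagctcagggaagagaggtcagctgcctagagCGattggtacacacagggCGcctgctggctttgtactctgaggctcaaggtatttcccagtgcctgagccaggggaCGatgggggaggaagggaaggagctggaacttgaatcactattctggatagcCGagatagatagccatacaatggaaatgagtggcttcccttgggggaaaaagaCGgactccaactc
Tbc1d4: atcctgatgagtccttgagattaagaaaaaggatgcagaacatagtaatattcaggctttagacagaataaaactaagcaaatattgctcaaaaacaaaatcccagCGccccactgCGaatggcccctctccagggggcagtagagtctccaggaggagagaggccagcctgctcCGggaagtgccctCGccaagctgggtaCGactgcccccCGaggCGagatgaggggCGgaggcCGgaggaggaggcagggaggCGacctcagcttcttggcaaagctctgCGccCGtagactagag
Cblb: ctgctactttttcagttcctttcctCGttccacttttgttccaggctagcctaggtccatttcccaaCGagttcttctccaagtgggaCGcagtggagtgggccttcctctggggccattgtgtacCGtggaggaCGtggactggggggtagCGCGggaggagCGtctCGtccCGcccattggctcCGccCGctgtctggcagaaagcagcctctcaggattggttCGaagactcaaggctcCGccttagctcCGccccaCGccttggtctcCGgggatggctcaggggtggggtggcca
Rictor: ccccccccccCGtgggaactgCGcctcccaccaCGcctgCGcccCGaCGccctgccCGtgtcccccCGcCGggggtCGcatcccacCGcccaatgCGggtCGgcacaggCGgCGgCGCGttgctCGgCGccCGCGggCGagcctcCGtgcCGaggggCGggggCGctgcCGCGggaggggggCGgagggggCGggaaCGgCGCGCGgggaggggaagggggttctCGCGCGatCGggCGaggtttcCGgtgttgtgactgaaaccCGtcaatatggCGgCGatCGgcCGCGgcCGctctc

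These 4 stretches held 6 CpGs at Igf1, 12 at Tbc1d4, 17 at Cblb and 47 at Rictor. The median over the 43 listed promoters was 20 CpGs, and over 20061 promoters of protein-coding genes it was 14. Of all coding promoters, 95.8% held at least 1 CpG. Igf1 was the only listed gene with no RefSeq promoter above 6 CpGs. The 3 touched promoters made 6.98% of the listed ones, against 12.1% of all coding promoters. Of the listed promoters, 1 of 9 with up to 6 CpGs touched a region, as did 2 of 11 with 7 to 19 and none of the 23 with 20 or more. Most CpG-poor listed promoters were thus untouched too. Over all coding promoters the share that touched a region was 17.4% with up to 6 CpGs, 13.6% with 7 to 19 and 6.21% with 20 or more. CpG content and promoter overlap are given as descriptions of these stretches, and RefSeq and GENCODE do not place the start of every gene at the same base.

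The question the regions address is where the tagged histone variant lay along the pathway before and after differentiation. A region was present in the window of 14 and 11 of the 34 genes in pre-adipocyte replicates 1 and 2, and of 17 and 15 genes in mature adipocyte replicates 1 and 2. Over all protein-coding genes the same shares were 33.7% and 29.3% in pre-adipocytes and 40.0% and 40.2% in mature adipocytes. In at least 1 sample, 22 of the 34 genes had a region (64.7%), where the background over all protein-coding genes was 51.9%. The listed genes are long, and among the 200 protein-coding genes nearest in length to each of them the share was 64.2%, close to that of the list. Regions in all 4 samples were found at 6 genes, Igf1, Grb2, Pik3r1, Rptor, Tsc1 and Cblb (17.6%, with 20.3% over all protein-coding genes and 28.9% among genes of like length).

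The regions of the listed genes lay mostly beside the genes, not inside them. Inside the gene body, 6 of the 34 genes had a region in at least 1 sample (Igf1, Sos1, Pdpk1, Tbc1d1, Hk2 and Cblb), that is 17.6%, where the background was 30.1% and genes of like length gave 44.7%, or 15.2 genes of 34. With 50 genes of like length taken from the same chromosome the number was also 15.2 of 34. Per sample, 2 and 3 bodies held a region in pre-adipocytes and 2 and 5 in mature adipocytes, while genes of like length gave 9 and 9, and 11.7 and 11.8. Igf1 was the only gene with a region in its body in all 4 samples, where the background was 9.99%. Of the 104 regions at the listed genes, 75 lay wholly in the flanks and 29 touched a body, 17 of these at Igf1. These shares describe a list of 34 genes and were not tested against chance.

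**Figure D1:**
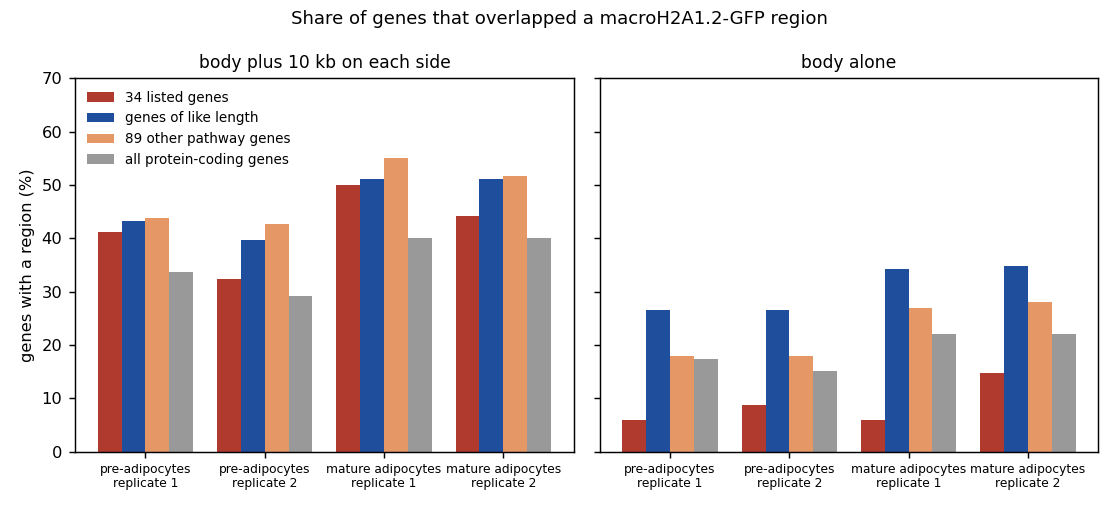
Share of genes (%) overlapping a macroH2A1.2-GFP region in each of the 4 samples, for the body plus 10 kb on each side (left) and the body alone (right). Bars stand for the 34 listed genes, genes of like length, 89 other genes of the pathway and all protein-coding genes; in the body the listed genes lie between 5.88% and 14.7% and genes of like length between 26.5% and 34.8%.

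The same contrast appeared in covered sequence. Of the summed body length of the 34 genes, regions covered 1.57% and 0.502% in pre-adipocyte replicates 1 and 2, and 0.513% and 0.686% in mature adipocyte replicates 1 and 2. Genes of like length had 7.14% and 3.26%, and 7.72% and 7.54%, higher in every sample. In the flanks the listed genes were covered to 11.8% and 5.23% in pre-adipocytes and 13.2% and 10.7% in mature adipocytes, where genes of like length had 10.9% and 4.83%, and 10.5% and 9.90%. Igf1 held most of the covered body sequence in pre-adipocyte replicate 1, and without it the covered body share was 0.0371% and 0.210% in pre-adipocytes and 0.183% and 0.335% in mature adipocytes.

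The flank coverage was mainly upstream of the genes. Averaged over the 34 genes, the 10 kb upstream was covered to 18.9% and 9.65% in pre-adipocytes and to 21.3% and 16.7% in mature adipocytes, above the 14.5% and 6.61%, and 13.7% and 12.7%, of genes of like length. The 10 kb downstream was covered to 4.75% and 0.804% in pre-adipocytes and to 5.03% and 4.74% in mature adipocytes, below the 7.30% and 3.05%, and 7.33% and 7.09%, of genes of like length. In at least 1 sample the upstream flank held a region in 19 genes and the downstream flank in 10, with both flanks touched in 7. These counts were not made over other genes, for which only counts per sample are given. Per sample, the upstream flank was touched in 12 and 8 genes in pre-adipocytes and in 15 and 13 in mature adipocytes, where genes of like length gave 9.14 and 6.91, and 11.2 and 11.02 of 34. Over all other protein-coding genes it was touched in 22.2% and 16.5%, and 26.8% and 26.7%. The downstream flank was touched in 5 and 2 listed genes in pre-adipocytes and in 7 and 6 in mature adipocytes, where genes of like length gave 5.25 and 3.52, and 6.30 and 6.41 of 34. Over all other protein-coding genes that share was 15.5% and 10.9%, and 18.7% and 18.9%. In each sample the best covered 2 kb bin of the listed genes lay between 4 and 10 kb upstream, at up to 27.6%, and it was at most 2.60% in each of 5 equal parts of the body.

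**Figure D2:**
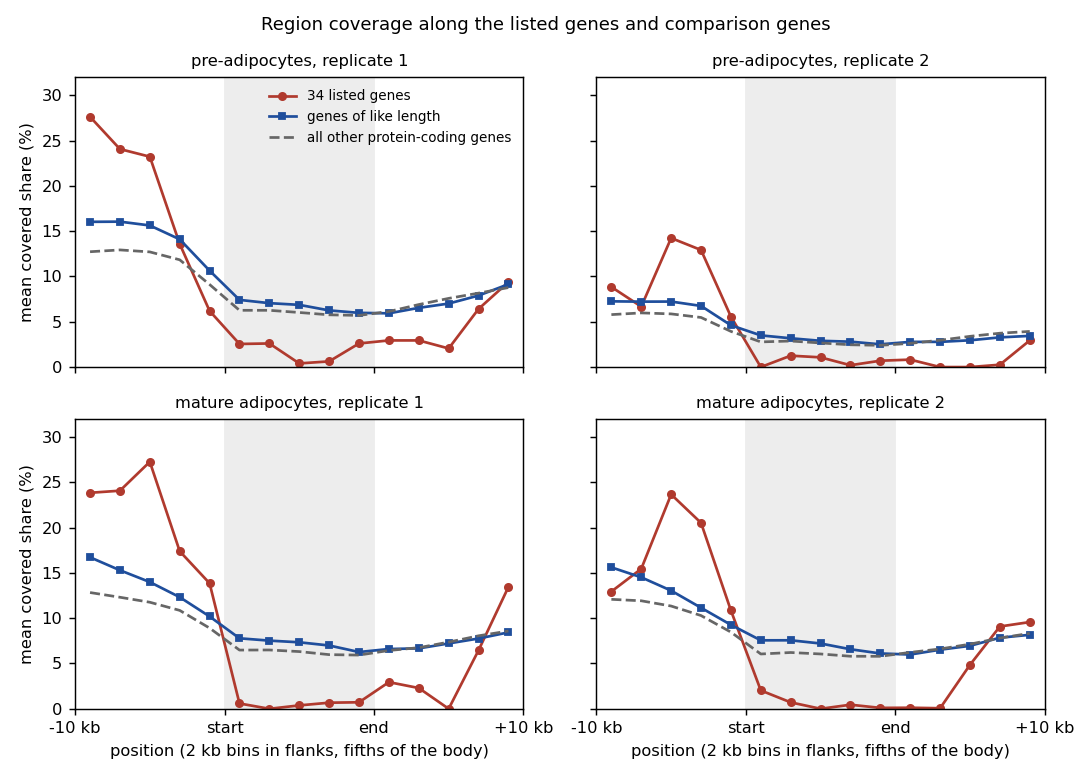
Mean covered share (%) along the genes in each sample, in 2 kb bins of the 10 kb flanks and 5 equal parts of the body (grey), with transcription running left to right. The listed genes (red) lie above genes of like length (blue) between 6 and 4 kb upstream in all 4 samples, reaching 27.3% in mature adipocyte replicate 1, and below them through the body; in other upstream bins the order varies, as between 2 and 0 kb in pre-adipocyte replicate 1 (6.20% against 10.6%).

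Some regions ended close to a start without reaching it. Of the 18 genes with a region wholly upstream, the near edge lay within 1 kb of the GENCODE start in at least 1 sample in 6, and the median of the closest edges was 1724 bp. The same count was not made over other genes. At Tbc1d4 it stopped 10 bp upstream in mature adipocyte replicate 1, and at Slc2a4 it stopped 13 bp upstream in mature adipocyte replicate 2 and 613 bp upstream in pre-adipocyte replicate 2. At Grb14, an adaptor that restrains the insulin receptor, the edge was 214 bp upstream in mature adipocyte replicate 1, and at Tsc1 it was 428 bp upstream in the same sample. At Rictor it was 979 bp upstream in pre-adipocyte replicate 2 and 1179 bp upstream in both mature adipocyte replicates. Region edges fall on steps of 200 bp, so these distances are no finer than that. The GENCODE start itself lay in a region at 3 of the 34 genes (8.82%), Igf1, Tbc1d1 and Cblb, against a background of 11.3%.

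**Figure D3:**
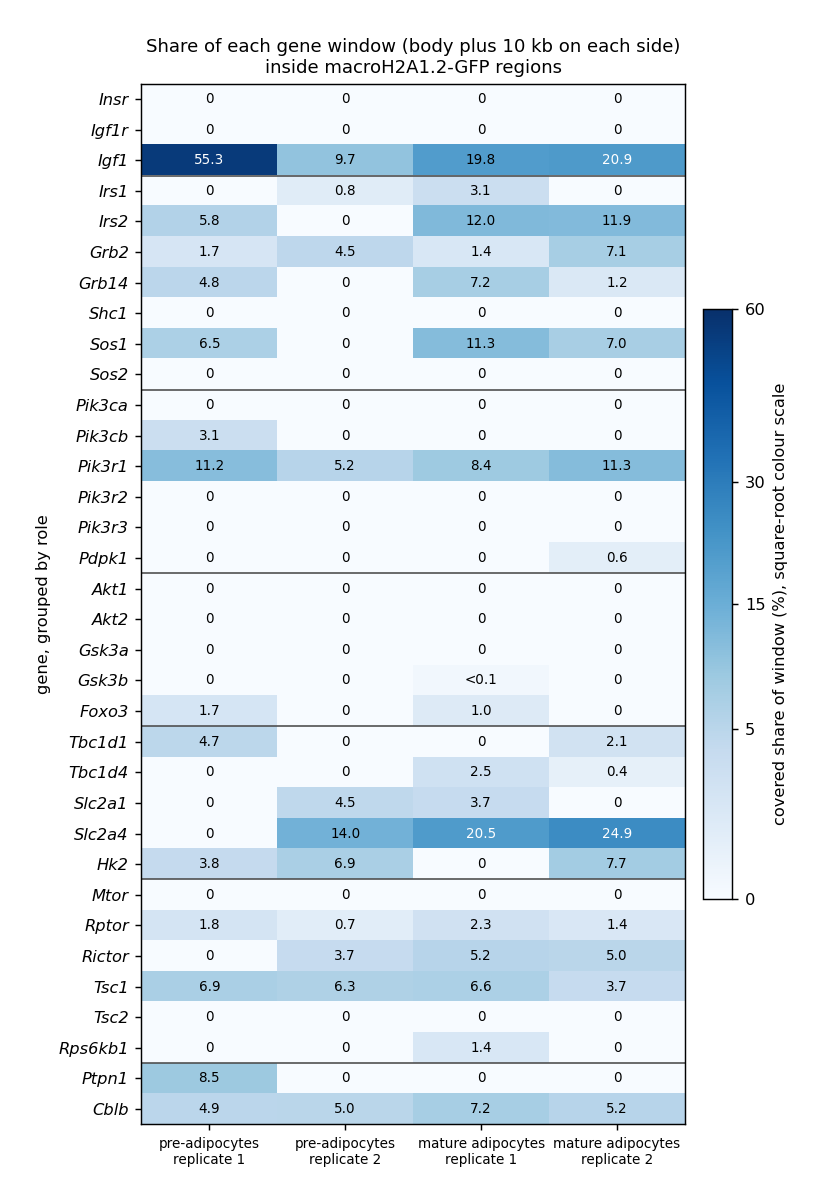
Share of each gene's window (%) inside macroH2A1.2-GFP regions, for the 34 genes (rows, grouped by role) in the 4 samples (columns), with a square-root colour scale. Igf1 reaches 55.3% in pre-adipocyte replicate 1, and 12 genes are at 0 in every sample.

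Among the receptors and ligand, only Igf1 had regions. Igf1, the growth factor that binds the IGF-1 receptor, spans chr10:87858265-87937042, and its window was covered to 55.3% and 9.72% in pre-adipocyte replicates 1 and 2 and to 19.8% and 20.9% in mature adipocyte replicates 1 and 2. Its regions held 1755 ChIP reads and 957 control reads in pre-adipocyte replicate 1, 227 and 195 in replicate 2, 703 and 362 in mature adipocyte replicate 1, and 724 and 312 in replicate 2. After scaling to library size the fold enrichment over the control was 1.53 and 2.12 before differentiation and 1.58 and 1.92 in mature adipocytes, so the conditions overlapped. In covered share the pre-adipocyte values lay on either side of both mature ones, with the shallow replicate the lower.

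The regions of Igf1 did not lie at the same places in all samples. Both mature adipocyte replicates had a region over the GENCODE start, with 66 ChIP and 22 control reads in replicate 1 (fold 2.44, 95% interval 1.49 to 4.16) and 125 and 46 in replicate 2 (fold 2.25, interval 1.59 to 3.23). Neither pre-adipocyte replicate had a region there. In pre-adipocyte replicate 1 the first region began 2536 bp into the gene and ran for 14200 bp with 448 ChIP and 241 control reads (fold 1.55, interval 1.32 to 1.82), and it held the RefSeq promoter printed above. The intervals here and below come from the read counts and cover counting error only. A merged stretch at the end of the gene, chr10:87931201-87945800, had calls in all 4 samples, though not at the same bases. In pre-adipocyte replicate 2 the call was at 87934201-87937600. In mature adipocyte replicate 2 it was at 87941001-87945800, wholly downstream of the gene, and these calls shared no base.

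**Figure D4:**
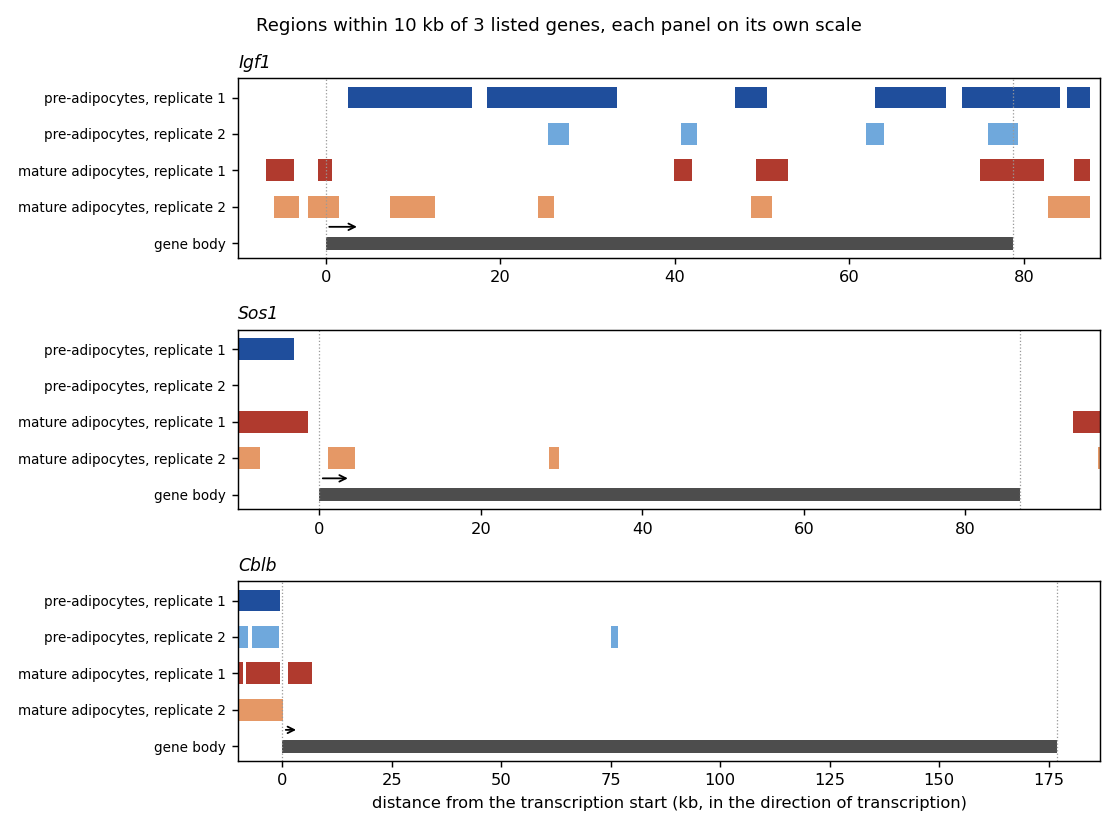
Regions of the 4 samples (coloured bars) along Igf1, Sos1 and Cblb by distance from the GENCODE start (kb, in the direction of transcription), cut at 10 kb outside the gene body (grey). Regions lie along the whole of Igf1, those of Sos1 lie in both flanks with 2 in the body in mature adipocyte replicate 2, and those of Cblb lie mostly upstream of the start.

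The receptors themselves had no region within 10 kb. For Insr, the insulin receptor (chr8:3122061-3279617), the nearest region was 2758583 and 1311383 bp away in pre-adipocyte replicates 1 and 2, while in each mature adipocyte replicate it was 19983 bp away. For Igf1r, the IGF-1 receptor, it was 14226 and 13426 bp away in pre-adipocytes and 23426 and 23226 bp away in mature adipocytes. Insr thus had its nearest region closer in mature adipocytes and Igf1r in pre-adipocytes, in both cases outside the window. Mature adipocytes had more regions in all (59375 and 61196, against 36468 and 38546), and such distances were not compared over other genes.

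Of the 7 substrates and adaptors, 5 had a region, all but Shc1 and Sos2. Irs1, the first substrate of the insulin receptor to be known (chr1:82233101-82291416), had no region in pre-adipocyte replicate 1 or mature adipocyte replicate 2. It had an upstream region with 34 ChIP and 20 control reads in pre-adipocyte replicate 2 (fold 3.10, interval 1.73 to 5.68) and with 75 and 38 in mature adipocyte replicate 1 (fold 1.61, interval 1.07 to 2.44). These regions lay 9385 and 7185 bp upstream of the start, while in the samples without a region the nearest was 11584 and 15984 bp away, just outside the window. Irs2, its relative, was reached by a downstream region of 39400 bp in pre-adipocyte replicate 1 and by upstream regions in both mature adipocyte replicates, with folds between 1.27 and 1.82.

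Grb2, the adaptor that links receptors to the RAS pathway (chr11:115644045-115708597), had upstream regions in all 4 samples and none in its body. Its regions held 300 ChIP and 169 control reads in pre-adipocyte replicate 1, 93 and 85 in replicate 2, 332 and 169 in mature adipocyte replicate 1, and 350 and 149 in replicate 2. The folds were 1.48 and 1.99 before differentiation and 1.60 and 1.95 in mature adipocytes, with the spread inside each condition larger than the gap between them. Sos1, the exchange factor that acts on RAS, had regions in all samples but pre-adipocyte replicate 2. Sos1 was also the only gene of this group with regions in its body, where mature adipocyte replicate 2 had 51 ChIP and 22 control reads in an exon-touching region and 127 and 74 near the start. The downstream region of Sos1 overlapped the neighbouring gene Arhgef33 in each sample that had it. Grb14 had upstream regions in the same 3 samples as Sos1, with folds of 1.19, 1.33 and 1.88.

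Of the 6 genes of PI3-kinase and its downstream kinase, Pik3ca, Pik3r2 and Pik3r3 had no region. Pik3r1, the main regulatory subunit (chr13:101680563-101768217), had flank regions in all 4 samples and none in its body. Its regions held 920 ChIP and 494 control reads in pre-adipocyte replicate 1, 119 and 105 in replicate 2, 742 and 308 in mature adipocyte replicate 1, and 984 and 455 in replicate 2. The folds were 1.55 and 2.06 in pre-adipocytes and 1.96 and 1.79 in mature adipocytes, and both mature values fell between the pre-adipocyte ones. Pik3cb, a catalytic subunit, had a region in pre-adipocyte replicate 1 alone, with 116 ChIP and 62 control reads. Pdpk1, the kinase that phosphorylates AKT, had a region in mature adipocyte replicate 2 alone, of 600 bp at the end of the gene with 38 ChIP and 18 control reads and an interval of 0.975 to 3.26 on the fold.

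Of the 5 genes of AKT and its substrates, 2 had a region. Akt1, Akt2 and Gsk3a had no region in any sample, and no gene of this group had one in both replicates of a condition. Akt2, the AKT form prominent in insulin-responsive tissue (chr7:27591552-27640826), had its nearest region 144174 and 148974 bp away in pre-adipocytes and 411374 and 415374 bp away in mature adipocytes. Gsk3b, a glycogen synthase kinase, was touched at the very edge of its window in mature adipocyte replicate 1, by a region with its near end 9916 bp from the gene. Foxo3, a transcription factor that AKT keeps out of the nucleus, had an upstream region in pre-adipocyte replicate 1 (122 ChIP and 53 control reads) and in mature adipocyte replicate 1 (57 and 26). Akt2, Gsk3a and Igf1r all lie on chromosome 7, where 16.7% of coding genes had a region in the window, and Akt1 and Sos2 lie on chromosome 12, where 37.6% did. Those chromosomes stood below the 51.9% of all coding genes. So did chromosome 3 (46.8%), with Shc1 and Pik3ca, and chromosome 4 (39.6%), with Pik3r3 and Mtor, all genes without a region. Insr and Pik3r2, also without a region, lie on chromosome 8 (61.5%) and Tsc2 on chromosome 17 (65.0%), both above that share. The part of the chromosome in these empty windows was not tested.

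All 5 glucose uptake genes had a region in at least 1 sample, where 51.9% of all protein-coding genes did. Only 1 had a region in both pre-adipocyte replicates and 2 in both mature adipocyte replicates. Slc2a4, the gene of GLUT4 (chr11:69942539-69948188), had none in pre-adipocyte replicate 1, where the nearest was 11338 bp away. Its flanking regions held 59 ChIP and 62 control reads in pre-adipocyte replicate 2, 275 and 125 in mature adipocyte replicate 1, and 244 and 104 in replicate 2. The folds in these 3 samples were 1.73, 1.79 and 1.95, and the window was covered to 14.0%, 20.5% and 24.9%. The short body of Slc2a4 held no region in any sample, so all of this coverage lay beside the gene. Slc2a1, the gene of the basal transporter GLUT1, had the highest folds of the list, with 43 ChIP and 22 control reads in pre-adipocyte replicate 2 (fold 3.56, interval 2.08 to 6.25) and 74 and 18 in mature adipocyte replicate 1 (fold 3.35, interval 1.98 to 5.96). These 2 regions lay next to each other upstream of the gene, and the other replicate of each condition had none in the window.

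Tbc1d4, a GTPase-activating protein that holds GLUT4 inside the cell until AKT phosphorylates it (chr14:101442360-101609191), was the only gene with a region in both mature adipocyte replicates and in neither pre-adipocyte one. This was 1 of 34 genes (2.94%), with a background of 4.73%. No region lay within 10 kb in pre-adipocyte replicates 1 and 2, where the nearest was 36209 and 190809 bp away. Mature adipocyte replicate 1 had 256 ChIP and 124 control reads in 2 upstream regions, and replicate 2 had 42 and 12 in 1 upstream region (fold 2.90, interval 1.5 to 6.06). The region of replicate 2 lay inside the farther one of replicate 1, and only replicate 1 had the region that reached the promoter printed above. No gene showed the opposite pattern, where the background was 0.896%. Counting bodies alone, 0 of 34 genes had a region in both mature adipocyte replicates only (background 3.07%) and 0 in both pre-adipocyte replicates only (background 0.450%). Tbc1d1, a relative of Tbc1d4, had 317 ChIP and 175 control reads over its GENCODE start in pre-adipocyte replicate 1 and 3 small body regions in mature adipocyte replicate 2. Hk2, the hexokinase that traps glucose in the cell, had flank regions in pre-adipocyte replicate 1 and mature adipocyte replicate 2 and 2 body regions in pre-adipocyte replicate 2.

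Of the 6 genes of the mTOR complexes and their regulators, Mtor and Tsc2 had no region. Mtor, the kinase shared by both complexes (chr4:148448611-148557683), had its nearest region 271517 and 294317 bp away in pre-adipocytes and 85317 and 171610 bp away in mature adipocytes. Rptor, the defining subunit of the first complex (chr11:119602905-119899576), had flank regions in all 4 samples although its body of 297 kb held none. Its regions held 335 ChIP and 128 control reads in pre-adipocyte replicate 1, 96 and 70 in replicate 2, 347 and 132 in mature adipocyte replicate 1, and 178 and 65 in replicate 2. The folds were 2.18 and 2.50 in pre-adipocytes and 2.14 and 2.27 in mature adipocytes, above 2 in every sample. Rptor was the only one of the 6 genes with regions in all 4 samples to stay above 2 throughout. Pre-adipocyte replicate 2 had its region downstream only and mature adipocyte replicate 2 upstream only.

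Rictor, the defining subunit of the second complex, had no region in pre-adipocyte replicate 1 and a single upstream region in each other sample, with 107 ChIP and 114 control reads in pre-adipocyte replicate 2, 278 and 157 in mature adipocyte replicate 1, and 253 and 154 in replicate 2. These 3 regions nearly coincided in position, and their folds were 1.71, 1.44 and 1.36. Tsc1, which restrains the first complex together with TSC2 (chr2:28641228-28691167), had upstream regions in all 4 samples. They held 190 ChIP and 80 control reads in pre-adipocyte replicate 1, 91 and 77 in replicate 2, 198 and 77 in mature adipocyte replicate 1, and 102 and 46 in replicate 2. The folds of Tsc1 were 1.98 and 2.15 in pre-adipocytes and 2.09 and 1.84 in mature adipocytes. Rps6kb1, the S6 kinase, had 1 downstream region with 53 ChIP and 26 control reads in mature adipocyte replicate 1, which overlapped the neighbouring gene Rnft1.

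Of the brakes, Ptpn1, a phosphatase that inactivates the insulin receptor, had an upstream region in pre-adipocyte replicate 1 alone, with 322 ChIP and 191 control reads. Cblb, a ubiquitin ligase (chr16:52031225-52208048), had upstream regions in all 4 samples. They held, with its body regions, 418 ChIP and 263 control reads in pre-adipocyte replicate 1, 227 and 250 in replicate 2, 647 and 370 in mature adipocyte replicate 1, and 1659 and 877 in replicate 2. The upstream domain was 1 region of 34200 bp running across the start by 175 bp in mature adipocyte replicate 2, and it stopped 425, 625 and 425 bp short of the start in the other samples. The folds of Cblb were 1.32 and 1.66 in pre-adipocytes and 1.42 and 1.57 in mature adipocytes.

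**Figure D5:**
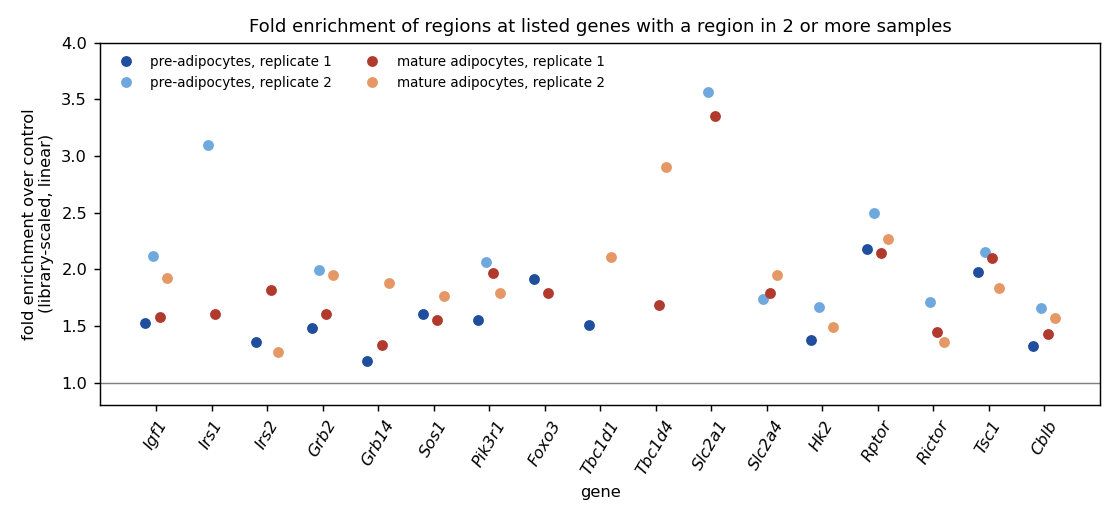
Fold enrichment of ChIP over control reads, scaled to library size (linear axis), for the 17 listed genes with a region in at least 2 samples, each point being 1 sample and pooling all regions of the gene. Most points lie between 1.19 and 2.50, and pre-adipocyte replicate 2 (light blue) is often the highest.

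Over all 104 regions the fold enrichment ran from 1.19 to 3.56, with a median of 1.82. Per sample, the median fold was 1.55 and 2.04 in pre-adipocytes, and 1.76 and 1.90 in mature adipocytes, beside 1.61 and 2.01, and 1.79 and 1.82, over all regions of these samples. In each sample the median of the list thus lay near that of the library. Regions were counted where they passed an FDR against the control. Pre-adipocyte replicate 2, the shallowest library, had 38546 regions in all, against 36468 in replicate 1. The part of library depth in the high folds of pre-adipocyte replicate 2 was not tested.

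With 2 samples in each condition, an exact permutation test cannot reach p = 0.05, so the values of the conditions are given with their spread. The number of genes with a region in the window averaged 12.5 ± 2.12 in pre-adipocytes and 16.0 ± 1.41 in mature adipocytes (SD, n = 2 each, exact two-sided permutation test p = 0.33). The counts did not overlap, and this is the smallest p that 2 samples against 2 can give. The ratio of flank to body coverage did not overlap either, at 7.53 and 10.4 in pre-adipocytes and 25.6 and 15.6 in mature adipocytes (exact two-sided permutation p = 0.33). Over all protein-coding genes the ratio ran to 1.38 and 1.33 in pre-adipocytes, and 1.25 and 1.24 in mature adipocytes. Much of the body coverage in the ratio of the listed genes was at Igf1. Without that gene the body share fell from 1.57% and 0.502% to 0.0371% and 0.210% in pre-adipocytes. In mature adipocytes it fell from 0.513% and 0.686% to 0.183% and 0.335%. Leaving out Igf1, the body shares of the conditions overlapped. The difference in body share, mature minus pre-adipocytes, then turned from -0.438 to 0.135 percentage points. The ratio itself was not computed without Igf1, so its gap between conditions is not shown to hold beyond that gene. Over all protein-coding genes the number with a region averaged 6850 ± 682 in pre-adipocytes, and 8717 ± 26.9 in mature adipocytes (SD, n = 2 each). Of the summed windows, 2.41% ± 1.48 was covered in pre-adipocytes, and 2.67% ± 0.216 in mature adipocytes (SD, n = 2 each, exact permutation p = 1). The pooled fold enrichment was 1.71 ± 0.362 and 1.68 ± 0.0379 (SD, n = 2 each, exact permutation p = 1). Both pre-adipocyte replicates shared 7 of the genes with a region in the window (20.6%, background 23.3%) and both mature adipocyte replicates 12 (35.3%, background 33.2%). When the same number of regions was taken from each sample, the difference in genes turned to -1 gene (mature adipocytes minus pre-adipocytes).

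A test on read counts was possible for 10 merged regions at 9 listed genes, those with calls in every sample, from 52 merged regions at the list. None of the 10 passed an adjusted p of 0.05 in edgeR's quasi-likelihood test, where 11 of 12857 tested regions did (0.0856%), of which the calls toward mature adipocytes made 0.0778% and those toward pre-adipocytes 0.00778% of the regions tested. DESeq2 also called none of the 10. The region with the smallest unadjusted p was the upstream domain of Cblb, chr16:51980201-52031400, with 33.5 and 39.1 ChIP reads per kb in pre-adipocytes and 40.2 and 39.8 in mature adipocytes after scaling to library size. The groups did not overlap there, but how often this held over all tested regions was not counted. The log2 fold change at this Cblb region was 0.15 (SE 0.062, edgeR unadjusted p = 0.0202, adjusted p = 0.440). It was the only one of the 10 regions with an unadjusted p under 0.05, where the background was 9.15% of tested regions. With DESeq2, or with edgeR on library sizes from the deposited scaling, 0 of the 10 had an unadjusted p under 0.05. This merged region ran beyond the window of Cblb. It held 1911 and 768 ChIP reads in pre-adipocytes, and 2351 and 2409 in mature adipocytes. The regions touching the window, body ones included, held 418 and 227, and 647 and 1659.

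The intervals of the other tested regions, at 2 SE, included 0. At Igf1 the calls merged at the end of the gene did not all share bases between samples. Their log2 fold change was -0.10 (interval -0.37 to 0.17), from 26.7 and 46.6 reads per kb in pre-adipocytes and 28.1 and 32.8 in mature adipocytes. Single libraries moved this value, which was -0.46 without pre-adipocyte replicate 1, 0.02 without pre-adipocyte replicate 2, 0.0018 without mature adipocyte replicate 1 and -0.20 without mature adipocyte replicate 2. At Slc2a4 a merged downstream region gave 0.11 (interval -0.18 to 0.39), from 26.1 and 34.7 reads per kb in pre-adipocytes and 31.1 and 32.3 in mature adipocytes. In pre-adipocyte replicate 1 that region was called outside the window of Slc2a4. Some of the calls behind the tests of Irs2, Grb14, Sos1, Pik3r1 and Cblb also lay outside the window. At Grb14 the upstream domain gave 0.11 (interval -0.05 to 0.27) and at Irs2 the downstream domain gave -0.08 (interval -0.22 to 0.06). The regions of Pik3r1, Grb2, Tsc1 and Sos1 lay between -0.03 and 0.07. These values rest on the length offset, which scales the counts by the called length in each sample. Reads were counted only inside each sample's own calls, so the offset does not make the compared stretches the same. How far this draws the values toward 0 was not tested. Without the offset they were 0.60 at Pik3r1, 0.29 at Grb2, -1.10 at Tsc1, and 1.23 and 0.24 at the downstream and upstream regions of Sos1. With the offset but without pre-adipocyte replicate 1, the downstream region of Sos1 was at -0.16. The median over the 10 was 0.02, beside -0.00066 over all tested regions.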

How the data were processed

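ChIP-Seq regions of 2 pre-adipocyte and 2 mature adipocyte samples were analysed. Per the labels and methods, the authors mapped single-end reads to the mm10 genome using Bowtie (1.1.2, up to 2 mismatches, unique reads), removed duplicates with Picard and called regions per sample with SICER 1.1 against the library without antibody. The deposited tables give raw ChIP and control read counts, a p-value, an FDR and a fold enrichment, the ratio of counts scaled by library size. The methods state a laxer FDR than the deposited limit of 0.001 and name adipose tissue for the ChIP, where the labels name 3T3-L1.

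Everything else was computed here, with Python 3.11.15, R 4.3.3, edgeR 4.0.16 and DESeq2 1.42.0. Windows were GENCODE M21 bodies plus 10 kb, and any overlap counted. Fold intervals are 95% exact binomial ones. Shares among genes of like length were averaged over the 200 nearest in length to each gene, without drawing. Counts of 12857 merged regions called in all 4 samples were tested with edgeR (TMM, log length offset, Benjamini-Hochberg), checked on simulated counts with 200 changed regions. Names and sequences of promoters came from RefSeq. The 34 genes, the 89 other pathway genes and the tests were chosen with earlier results of these data known. Every listed gene is named, with values per sample for those with regions in all 4 samples or in a single condition, and for Insr, Irs1, Akt2, Slc2a4 and Mtor.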

Additional observations from a re-analysis of the deposited data

How the results depend on the processing

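The replicate numbers showed no pairing of the samples (correlation of deviations 0.00775 for the same number). With 2 replicates in a condition the deviations mirror each other, so the value for different numbers, -0.00775, follows from the first. With a replicate block, edgeR called 27 regions in all, against 11 without, and 0 at the listed genes, and the block changed no call at the list. The number of calls over all tested regions was 27 with at least 50 ChIP reads in every sample, 3 without the length offset, 2 with DESeq2, 0 with library sizes from the deposited scaling, and from 1 to 224 when a replicate was left out (112 without pre-adipocyte replicate 1, 224 without replicate 2, 5 without mature adipocyte replicate 1 and 1 without replicate 2). At the listed genes it was 0 in each of these fits.

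The difference in genes with a region, mature minus pre-adipocytes, was -1 with the same number of regions per sample, and 2 to 5 leaving out a replicate. The difference in covered window, 0.264 percentage points, was -0.438 for bodies alone, -0.105 with 5 kb flanks, -0.0350 at an FDR of up to 1e-05, -0.910 with equal numbers of regions, and -0.778 to 1.31 leaving out a replicate, so it has no stable direction. The difference in fold, -0.0303, was 0.103 with equal numbers and -0.286 to 0.225 leaving out a replicate, 0.225 being without pre-adipocyte replicate 2. That in flank coverage, 3.40 points, was -1.20 with equal numbers, 0.124 at a fold of at least 2, and 0.0912 to 6.71 leaving out a replicate, 0.0912 being without pre-adipocyte replicate 2 and 6.71 without replicate 1. That in body coverage, -0.438, was 0.0308 at a fold of at least 2, 0.135 without Igf1, and -0.973 to 0.0976 leaving out a replicate, 0.0976 being without pre-adipocyte replicate 1.

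Genes with a region in both pre-adipocyte replicates numbered 7, and 1 for bodies alone, 4 with 5 kb flanks and 1 at a fold of at least 2. In mature adipocytes the number was 12, and 2 for bodies alone and 2 at that fold. Bodies with a region numbered 3 to 6 under the alternatives run, and genes of like length gave 10.0 to 15.2 of 34. The cause of these shifts was not tested.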

Other observations

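Other genes of the pathway carried regions inside their bodies more often than the 34. A list of 89 further genes held ligands, binding proteins, phosphatases, mTOR regulators and MAP kinases. Of these, 32 had a region in the body in at least 1 sample (36.0%, beside 17.6% of the 34 and 30.1% of all protein-coding genes). In the window, 63 had a region (70.8%, beside 51.9% of all protein-coding genes). The lists differ in gene length and the difference was not tested. In all 4 samples, 26 of the 89 had a region in the window (29.2%, background 20.3%) and 11 in the body (12.4%, background 9.99%).

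The 5 of these genes with most ChIP reads had body regions in every sample. Sgk1, a kinase related to AKT, was covered in its body to 56.1% and 26.3% in pre-adipocytes and to 64.9% and 52.3% in mature adipocytes. Grb10, an imprinted adaptor that restrains the insulin receptor, was covered to 49.6% and 36.8% in pre-adipocytes and to 43.8% and 39.9% in mature adipocytes. Its relative Grb14, on the list of 34, had none in its body. Enpp1, a membrane enzyme that inhibits the insulin receptor, reached 37.0% and 16.0%, and 21.8% and 41.6%. Prr5l, which binds the second mTOR complex, reached 28.7% and 6.52%, and 25.6% and 24.9%, and Deptor, an inhibitor of mTOR, 17.4% and 8.44%, and 6.94% and 11.6%. In each of these 5 genes the pre-adipocyte and mature adipocyte values overlapped.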
